A study of Mus musculus with 6 samples.

Results

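Cytosolic ribosomal protein genes were examined in livers of Nrf2 knockout mice, with wild-type livers as the comparison. Members were all probe sets annotated to exactly 1 gene symbol of the Rpl or Rps series, or to Rplp0, Rplp1, Rplp2 or Rpsa. Symbols starting with Rps6k, which are kinases, and pseudogene symbols were left out. This gave 106 of the 45037 non-control probe sets on the array, standing for 50 of the 18193 genes with a probe set of their own. A further 110 probe sets carry a ribosomal protein gene together with other symbols, often of pseudogenes or predicted genes, and are described only as counts. By that annotation 31 ribosomal protein genes, Rplp1, Rpl3, Rpl5 and Rpl36al among them, had no probe set of their own. Of the 50 genes, 43 encode proteins of the cytosolic ribosome itself, 6 are paralogs and 1, Rps19bp1, encodes a nucleolar protein that binds a ribosomal protein.

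The study measured total liver RNA on 1-colour Affymetrix arrays, 3 for Nrf2 knockout and 3 for wild-type mice, all C57B/SV129 and 10 weeks old. RNA of 3 animals was combined for each array, so replicates are pools and the spread between single animals is not seen. The labels name no treatment or surgery and do not say whether pools shared animals. The knockout is carried by the whole animal as far as the labels say, so a change in liver cells cannot be told apart from one set by other organs. In whole liver, fewer cells of a type and less RNA per cell also cannot be told apart.

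A ribosome has a small subunit, which reads the messenger RNA, and a large subunit, which joins amino acids. The ribosomal proteins fold and stabilise the ribosomal RNA of each. Their transcripts are among the most abundant in liver, and most begin with a run of pyrimidines, the terminal oligopyrimidine tract. Through this tract mTORC1, the kinase complex that conveys insulin and nutrient signals, sets how well they are translated. That control acts on translation, while these arrays measured transcript level alone. Nrf2, the product of Nfe2l2, switches on detoxifying and antioxidant genes through antioxidant response elements in their regulatory DNA.

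The sequences around the annotated transcript starts are shown for members on both sides of 0, because the tract is sought at the start. They are RefSeq sequences of GRCm38.p6, 40 bases before and 20 from the start on, with runs of at least 6 C or T in capitals. Rpl38 lies at chr11:114668540-114668599 (+), Rplp2 at chr7:141447611-141447670 (+), Rps28 at chr17:33824543-33824602 (-) and Rpl37a at chr1:72711220-72711279 (+). Rpl4 lies at chr9:64173347-64173406 (+), Rplp0 at chr5:115559427-115559486 (+) and Rps7 at chr12:28635934-28635993 (-). The first 4 were higher in the knockout and the last 3 were lower, none of them past the threshold.
Rpl38: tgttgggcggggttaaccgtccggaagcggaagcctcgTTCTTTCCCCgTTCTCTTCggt
Rplp2: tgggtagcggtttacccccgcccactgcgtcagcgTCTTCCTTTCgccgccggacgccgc
Rps28: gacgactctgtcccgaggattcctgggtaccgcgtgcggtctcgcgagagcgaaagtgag
Rpl37a: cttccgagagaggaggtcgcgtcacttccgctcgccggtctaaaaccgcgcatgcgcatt
Rpl4: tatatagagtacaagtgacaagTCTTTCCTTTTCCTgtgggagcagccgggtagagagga
Rplp0: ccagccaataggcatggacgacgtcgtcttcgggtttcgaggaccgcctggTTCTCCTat
Rps7: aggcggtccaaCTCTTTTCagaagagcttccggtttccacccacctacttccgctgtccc

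RefSeq promoter windows, from 250 bases before to 50 after the start, were found for 44 of the 50 members, and 17492 protein-coding genes served for comparison. A C followed by at least 4 C or T from the annotated start on stood in 8 of the 44 members (18.2%), against 2.67% of all genes. The 8 were Rpl14, Rpl35, Rpl38, Rplp2, Rps10, Rps18, Rps27 and Rps6. A run of at least 6 C or T between 10 bases before and 20 after the start stood in 61.4% of the members, against 31.9% of all genes. The letters CCGGAAG, the core bound by ETS factors, stood on either strand in 21 members (47.7%), against 12.9% of all genes. The run of Rplp2 and the first run of Rpl38 cross the annotated start, while those of Rpl4 and Rps7 lie before it. That of Rplp0 lies after it, and the windows shown for Rps28 and Rpl37a hold no such run. Whether the annotated starts are the ones used in liver was not tested.

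The first question was whether the whole set was shifted in livers without Nrf2. No ribosomal protein gene passed the test, and the set lay slightly higher in the knockout. Of the 50 members, 47 had a probe set bright enough to be tested, that is, at or above the median log2 value of all probe sets. At the brightest tested probe set of each, 36 were higher and 11 were lower in the knockout (76.6% higher, against 51.4% of the 11102 tested genes). The median log2 difference was 0.08, a 1.06-fold level, with quartiles of 0.01 and 0.13, against a median of 0.01 over all tested genes with quartiles of -0.12 and 0.13. Small subunit genes had a median of 0.07 with 17 of 20 higher, and large subunit genes a median of 0.08 with 15 of 22 higher.

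By limma with Benjamini-Hochberg adjustment over all 22519 tested probe sets and a threshold of 0.05, 0 of the 47 genes passed, where 0.144% of all genes did. The smallest adjusted p among the 93 tested member probe sets was 0.359, and 0 of them passed, where 0.142% of all probe sets did. Of these 93, 8 were higher and 1 was lower at an unadjusted p under 0.05, where 3.75% and 3.89% of all probe sets were. The 8 belonged to Rps29, Rps28, Rpl37a and Rpl38. Rps29 and Rps28 each gave several of them, so these are partly repeat readings of the same gene. At an unadjusted p under 0.05, 4 of the 47 genes were higher, where 4.07% of all genes were, and 0 were lower, where 4.15% were. That count of higher genes was 6 without knockout pool 1, 5 without wild-type pool 2 and 2 without wild-type pool 3. It was also 2 under median centring of the arrays, with no intensity trend and without the _s_at and _x_at probe sets. With wild-type pool 2 left out, 1 member was lower. The share of all genes at this p was not counted in these settings. Without knockout pool 2 the median difference of the set was 0.03, against 0.00 for all genes, and 34 of 47 members were higher.

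**Figure D1:**
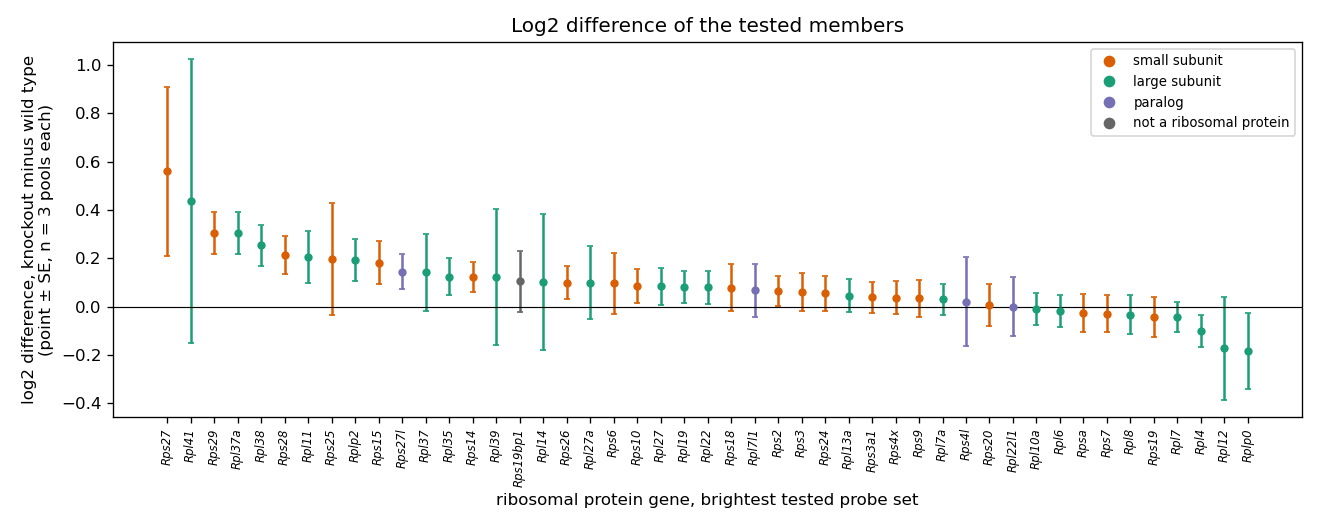
Log2 difference, knockout minus wild type, of the 47 tested members at their brightest probe set (points, with SE as bars, n = 3 pools per genotype), in order and coloured by class. Most points lie a little above 0, with 36 above and 11 below, and the longest bar belongs to Rpl41 (SE 0.59).

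The differences themselves were small. Of the 47 members, 27 were within 0.1 log2 of 0 and 4 were beyond 0.3, all 4 higher: Rps27, Rpl41, Rps29 and Rpl37a. Standard errors ran from 0.06 to 0.59 with a median of 0.08. The brightest probe sets of 36 members lay at or above the 95th percentile of all probe sets. These bright members varied little within a genotype, with a median SD of 0.07 log2, against 0.11 for the 1086 other genes of mean log2 value of at least 10. Their differences had a median of 0.06 with 26 higher and 10 lower, against 0.01 with 565 higher and 521 lower for those other genes.

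Members of the small subunit are described first. Rps29 encodes one of the smallest proteins of the subunit, which holds a zinc ion. Its brightest probe set was read at 6440, 8272 and 9305 in the knockout pools, against 7083, 6278 and 7611 in the wild-type pools. Those deposited values overlap, and they also overlapped once the arrays were centred on their medians. The centred log2 values were 12.81, 13.10 and 13.10 in the knockout pools, against 12.57, 12.87 and 12.70 in the wild-type pools. After quantile normalization the log2 values were 12.84, 13.09 and 13.14 in the knockout pools, against 12.67, 12.70 and 12.77 in the wild-type pools, so that each knockout pool was above each wild-type pool. The log2 difference was 0.31 ± 0.09 (SE, n = 3 per genotype), with a limma adjusted p of 0.443 (unadjusted p = 0.0068). Its 2 dimmer probe sets differed by 0.44 ± 0.11 and 0.45 ± 0.12, again with each knockout pool above each wild-type pool. Over the 15 alternatives that gave it a value the difference of Rps29 ran from 0.25 to 0.40, and its unadjusted p did not exceed 0.043. All its probe sets end in _x_at, so it has no value without that kind.

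Rps28 encodes another very small protein near the messenger RNA exit of the subunit. Normalized log2 values were 12.07, 12.21 and 12.17 in the knockout pools, against 11.89, 12.05 and 11.86 in the wild-type pools. The groups did not overlap, but the lowest knockout pool and the highest wild-type pool were close. The log2 difference was 0.21 ± 0.08 (limma adjusted p = 0.6, unadjusted p = 0.0243), and the other probe sets of Rps28 lay at 0.23 ± 0.07 each. Under median centring the groups of Rps28 overlapped, at 12.02, 12.21 and 12.19 in the knockout, against 11.82, 12.14 and 11.87 in the wild type.

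Rps15 and Rps14 encode proteins of the head and the platform of the subunit. Rps15 was at 0.18 ± 0.09 and Rps14 at 0.12 ± 0.06, with limma adjusted p-values of 0.687 and 0.692. Without knockout pool 2, Rps15 was at 0.014 and Rps14 at 0.12. Rps6, the classical substrate of the S6 kinases downstream of mTORC1, was at 0.10 ± 0.13. Its intensities were 269, 303 and 318 in the knockout pools, against 363, 212 and 391 in the wild-type pools, so the wild-type pools spread around the knockout ones. Rpsa, the laminin receptor protein of the subunit, was at -0.03 ± 0.08, Rps7 at -0.03 ± 0.08 and Rps19, mutated in an inherited anaemia in humans, at -0.04 ± 0.08. These were the 3 lowest members of the small subunit, and none was below 0 by more than its standard error.

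Rps27 was at 0.56 ± 0.35, at a dim probe set. Intensities were 96.0, 79.3 and 107 in the knockout pools, against 147, 50.2 and 42.0 in the wild-type pools. The highest value of all belonged to a wild-type pool, and the unadjusted p was 0.146. Its difference was 0.98 without wild-type pool 1 (limma adjusted p = 0.509) and 0.18 without wild-type pool 3. Its paralog Rps27l, a target of p53, was at 0.15 ± 0.07 at a probe set read at 2868 to 4014 in the knockout and 2880 to 3605 in the wild type. The normalized values of Rps27l did not overlap between genotypes, and its other tested probe sets were at 0.08 and 0.19. The paralog Rps4l was at 0.02 ± 0.18, and its direction turned under median centring (-0.03) or with array weights (-0.10).

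In the large subunit, Rpl37a and Rpl38 stood highest among the members with small errors. Rpl37a encodes a small zinc-binding protein. Its normalized log2 values were 11.99, 12.28 and 12.08 in the knockout pools, against 11.78, 11.81 and 11.85 in the wild-type pools. Each knockout pool was above each wild-type pool, and the log2 difference was 0.30 ± 0.09 (limma adjusted p = 0.443, unadjusted p = 0.00681). The next probe set of Rpl37a was at 0.11 ± 0.09, and the mean of its probe sets gave 0.16, with an unadjusted p of 0.147.

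Rpl38 encodes a small protein of the large subunit that is needed in mouse embryos for the translation of Hox transcripts. Normalized log2 values were 12.16, 12.37 and 12.18 in the knockout pools, against 11.94, 12.09 and 11.92 in the wild-type pools. The difference was 0.25 ± 0.08 (limma adjusted p = 0.56, unadjusted p = 0.0159), resting on a single probe set. Rpl11, which binds Mdm2 when ribosome assembly is disturbed, was at 0.21 ± 0.11 (0.32 without wild-type pool 2), and its normalized log2 values overlapped, at 11.70, 11.69 and 11.85 in the knockout pools, against 11.41, 11.77 and 11.44 in the wild-type pools. Knockout pools 1 and 2 lay below wild-type pool 2.

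The stalk of the large subunit, which recruits the elongation factors, gave differences of both signs. Its base Rplp0 was read at 3451, 4530 and 3944 in the knockout pools, against 5534, 3270 and 6271 in the wild-type pools. As deposited, the wild-type pools of Rplp0 spread widely and enclosed the knockout pools. After normalization knockout pool 3, at 11.83, lay just below the lowest wild-type pool, at 11.86. The log2 difference of Rplp0 was -0.18 ± 0.16. Leaving out wild-type pool 2 gave -0.35 (limma adjusted p = 0.878) and leaving out wild-type pool 3 gave -0.06. Leaving out knockout pool 2 gave -0.30, and knockout pool 3, -0.09. Rplp2, which binds to that base, had normalized log2 values of 11.76, 12.03 and 11.81 in the knockout pools, against 11.64, 11.73 and 11.65 in the wild-type pools. The difference of Rplp2 was 0.19 ± 0.09 (limma adjusted p = 0.657), and 0.12 without knockout pool 2. Whether Rplp2 and Rplp0 differ from each other was not tested.

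Rpl4 came nearest to a lower level with a small error, at -0.10 ± 0.07 (limma adjusted p = 0.765). It encodes a protein whose long loop lines the exit tunnel of the nascent chain. Its log2 values were 12.22, 12.29 and 12.16 in the knockout pools, against 12.35, 12.28 and 12.34 in the wild-type pools, overlapping by 1 pool on each side. Rpl12 was at -0.17 ± 0.21 with a dim probe set, Rpl7 at -0.04 ± 0.06 and Rpl8 at -0.03 ± 0.08. A dimmer probe set of Rpl7 was at -0.20 ± 0.08 (limma unadjusted p = 0.0331). Among the 93 tested member probe sets it was the only 1 with all normalized knockout values below the wild-type values. Rpl22 and its paralog Rpl22l1, which Rpl22 is known to repress in mice, were at 0.08 ± 0.07 and 0.00 ± 0.12. Rpl7l1, a paralog of Rpl7, was at 0.07 ± 0.11, and Rps19bp1, the member that is no ribosomal protein, at 0.10 ± 0.13.

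**Figure D2:**
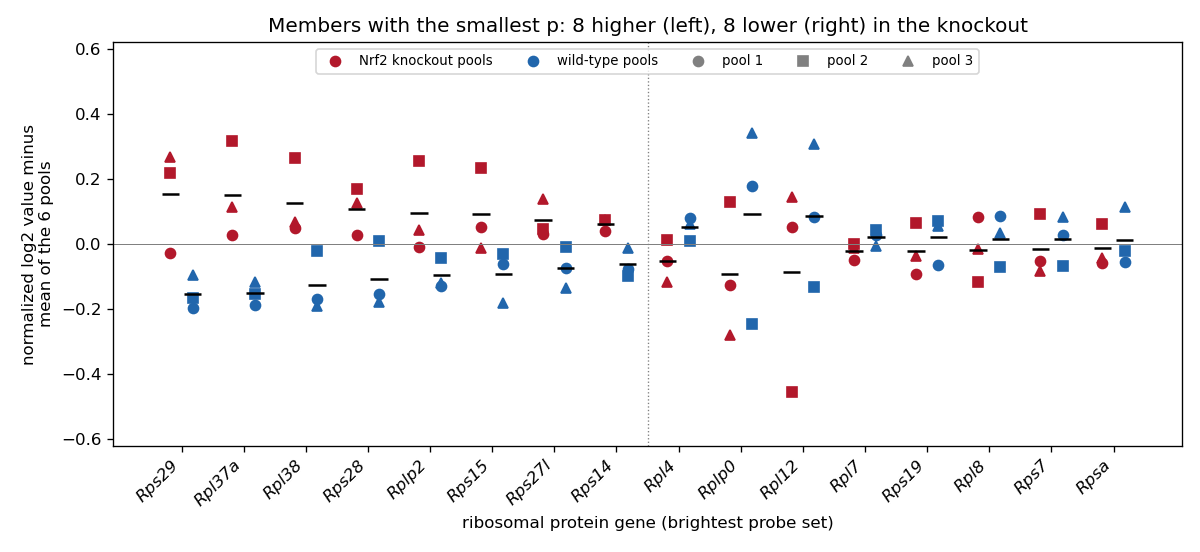
Normalized log2 values of 16 members in the 6 pools, as the distance from the mean of the pools, with knockout pools left of wild-type pools and a line at each genotype mean. On the left, among the 8 higher members with the smallest p, the knockout pools lie above the wild-type pools. On the right, among the 8 lower members, the pools overlap, widely for Rplp0 and Rpl12.

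Rpl41, which encodes the smallest ribosomal protein, differed more between pools than any other member, and is described because its values stood out once seen. Its brightest probe set was read at 858, 4223 and 5072 in the knockout pools, against 1652, 3516 and 1886 in the wild-type pools. Both genotypes thus held high and low pools, the SD within genotypes, pooled over both, was 1.05 log2, and the difference was 0.44 ± 0.59. The next probe set had a narrower range, at 1421, 2271 and 2216 in the knockout pools, against 1682, 1632 and 1806 in the wild-type pools. As deposited, it was likewise lowest in knockout pool 1 and highest in knockout pools 2 and 3. After normalization its lowest log2 value was 10.48, in wild-type pool 1. Knockout pool 1, at 10.74, then also lay above wild-type pool 3, at 10.59. The difference of this probe set was 0.33 ± 0.15 (limma unadjusted p = 0.0526). The remaining pair of Rpl41 probe sets was dim, between 12.4 and 41.6 on all arrays, and lay at -0.20 and 0.00.

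**Figure D3:**
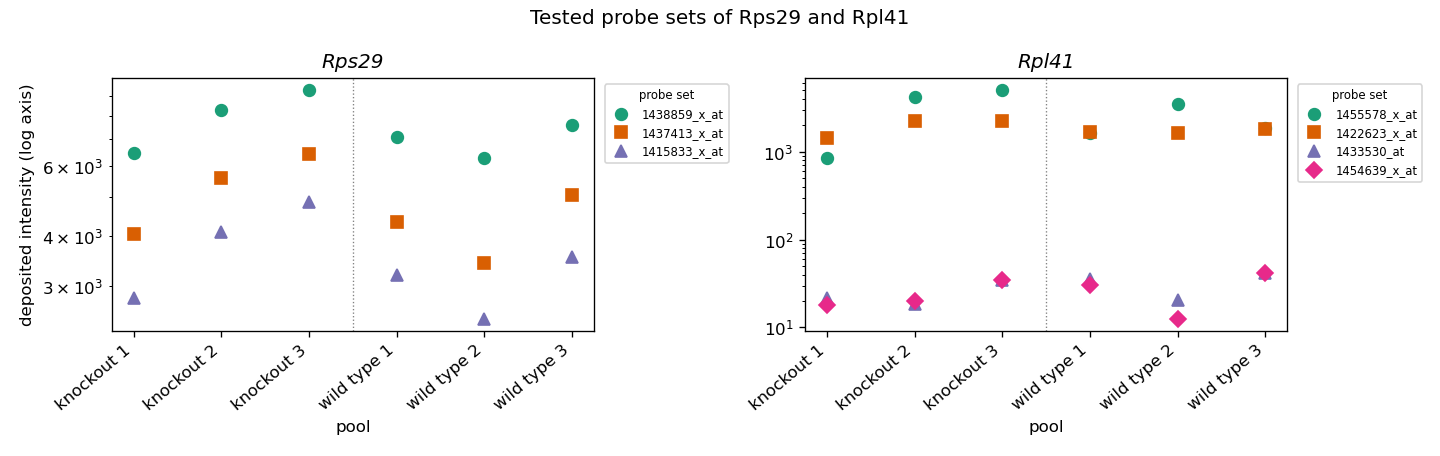
Deposited intensities, on a log axis, of the tested probe sets of Rps29 (left) and Rpl41 (right) in the knockout pools and then the wild-type pools. The 3 probe sets of Rps29 put the pools in the same order, while the brightest of Rpl41 runs from 858 to 5072. The next of Rpl41 is also lowest in knockout pool 1 and highest in knockout pools 2 and 3, and the dim pair is not.

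Probe sets of a gene did not always point the same way. Of the 20 members with more than 1 tested probe set, 11 had all of them on the same side of 0. All 5 of Rpl35 were higher, between 0.09 and 0.21, whereas those of Rps10 ran from -0.16 to 0.15 with 3 of 5 higher. Probe sets whose ID ends in _x_at hold probes that also match other transcripts, which bears on genes with many pseudogenes, as these have. Of the 38 tested member probe sets of that kind, 33 were higher and 5 lower, against 15 higher and 9 lower of 24 that end in plain _at and 17 higher and 11 lower of 28 that end in _a_at. Without the _x_at and _s_at probe sets 27 of 42 members were higher (64.3%, against 51.1% of all genes). Among the 110 probe sets shared with other genes, 100 were tested, 71 were higher and 29 lower, and the median was 0.05.

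The members not tested were Rps16, Rpl3l and Rpl39l. Their single probe sets lay between 0.202 and 10.3 on all arrays. Rpl3l and Rpl39l encode paralogs known from muscle and testis. Rps16 encodes a protein of the small subunit, and 0.202 to 0.873 is the reading of its single probe set. Another 11 tested members had a brightest probe set under a log2 mean of 10, read between 16.5 and 561, and 10 of them were higher. Whether such dim probe sets, or that of Rps16, report the main transcript of their gene was not tested.

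The question of whether the groups overlapped depended on how the arrays were scaled. After quantile normalization, all knockout pools lay above all wild-type pools for 12 of the 47 members, where 7.38% of all genes did, and below them for 0, where 6.55% did. Among the 93 tested member probe sets it was 19 above and 1 below, where 6.81% and 6.57% of all probe sets were. A gene with several probe sets can count more than once there. The 12 were Rps29, Rpl37a, Rpl38, Rps28, Rplp2, Rps15, Rps27l, Rpl35, Rps14, Rps26, Rpl22 and Rps2. Under median centring Rpl37a alone remained, 2.13% of the members against 4.49% of all genes. In the deposited intensities, before any scaling, it was 0 of 47 above and 0 below, against 0.784% of all genes above and 6.47% below.

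Pools differed in the level of the whole set, and knockout pool 2 stood highest. The median over the members of the normalized log2 value, relative to the mean of the 6 pools, was 0.01, 0.09 and -0.01 in the knockout pools, against -0.04, -0.06 and -0.01 in the wild-type pools. Knockout pool 3 and wild-type pool 3 were thus level. Knockout pool 2 held the highest of the 6 values for 25 of the 47 members (53.2%, against 23.5% of all genes). Under median centring the medians were -0.06, 0.12 and 0.03 in the knockout pools, against -0.09, 0.02 and 0.00 in the wild-type pools, and the genotypes overlapped.

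**Figure D4:**
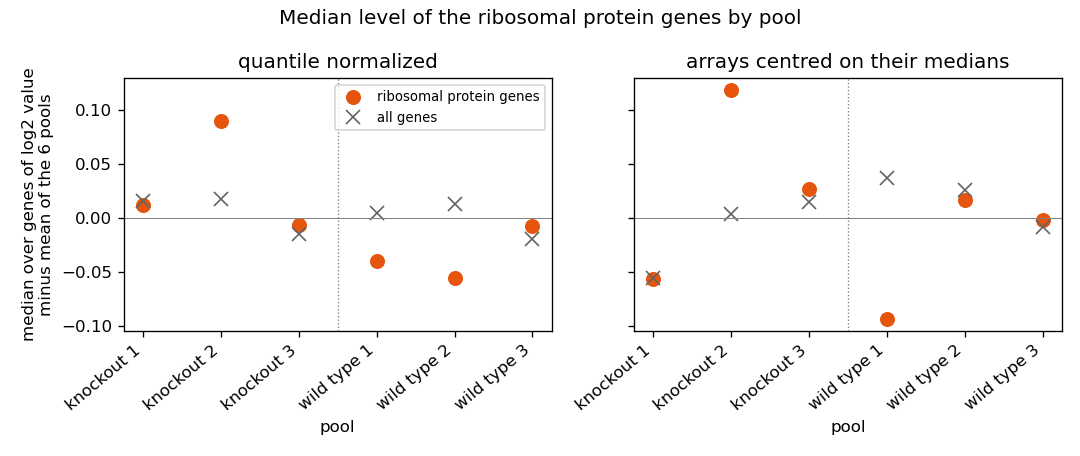
Median over the 47 members (circles) and over all tested genes (crosses) of the log2 value minus the mean of the 6 pools, for each knockout and then each wild-type pool, under quantile normalization (left) and centring on array medians (right). Knockout pool 2 is highest for the members in both panels, at 0.09 and 0.12.

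The other gene sets of protein synthesis and its machinery were set beside the members, with the same arrays. Mitochondrial ribosomal protein genes, which serve the separate ribosome of mitochondria, had a median of 0.09 with 57 of 76 higher, and proteasome subunit genes a median of 0.09 with 30 of 37 higher. In both sets 0 genes passed by limma, where 0.144% of all genes did. At an unadjusted p under 0.05, 3 of the 76 mitochondrial genes were higher and 1 was lower. Of the 37 proteasome genes 6 were higher and 0 lower at that p, where 4.07% and 4.15% of all genes were. Whether the cytosolic set, with its median of 0.08, differs from either was not tested.

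Translation factor genes, which start, lengthen and end proteins, had a median of -0.01, with 17 of 40 higher. After quantile normalization the summed level of these genes was 60947 to 61934 in the knockout pools, against 62696 to 64249 in the wild-type pools. These sums did not overlap, but the brightest genes weigh most in them, and they were not computed under another scaling. The members' own sums overlapped, at 143947 to 158616 in the knockout pools, against 140337 to 144085 in the wild-type pools. The initiation helicase gene Eif4a2 was at -0.28 ± 0.08 (limma adjusted p = 0.436). Eif4g2, a scaffold related to eIF4G, was at -0.22 ± 0.09 (limma adjusted p = 0.622). After quantile normalization each had all knockout pools below all wild-type pools. The deposited values of Eif4a2 overlapped, with 3321 in knockout pool 3 and 3089 in wild-type pool 2. Ribosome biogenesis genes had a median of -0.01, with 33 of 75 higher. Among them the nucleolar GTPase gene Gtpbp4 was at -0.37 ± 0.14 and Ddx47, an RNA helicase gene, at 0.40 ± 0.17. Whether the ribosomal protein genes differ from either set was not tested.

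Genes of mTORC1 and of LARP1, the protein that binds terminal oligopyrimidine tracts, had a median of 0.05, with 17 of 24 higher. Larp1 itself was at 0.27 ± 0.10 (limma adjusted p = 0.607) and the mTOR inhibitor gene Deptor at -0.30 ± 0.12 (adjusted p = 0.607). Of 8 other ribosome-bound or tract-bearing transcripts 6 were higher, and Naca, which encodes a chaperone of nascent chains, was at 0.20 ± 0.08 (adjusted p = 0.607). Fau, which encodes a small subunit protein fused to a ubiquitin-like part, was at 0.07 ± 0.10. By limma 0 genes of these 4 lists passed the adjusted threshold. At an unadjusted p under 0.05, 4.07% of all genes were higher and 4.15% lower. Of the 40 translation factors 2 were lower at that p, and of the 75 biogenesis genes 1 was higher and 1 lower. Of the 24 mTORC1 and LARP1 genes 1 was higher and 1 lower, and of the 8 genes of the last list 1 was higher.

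**Figure D5:**
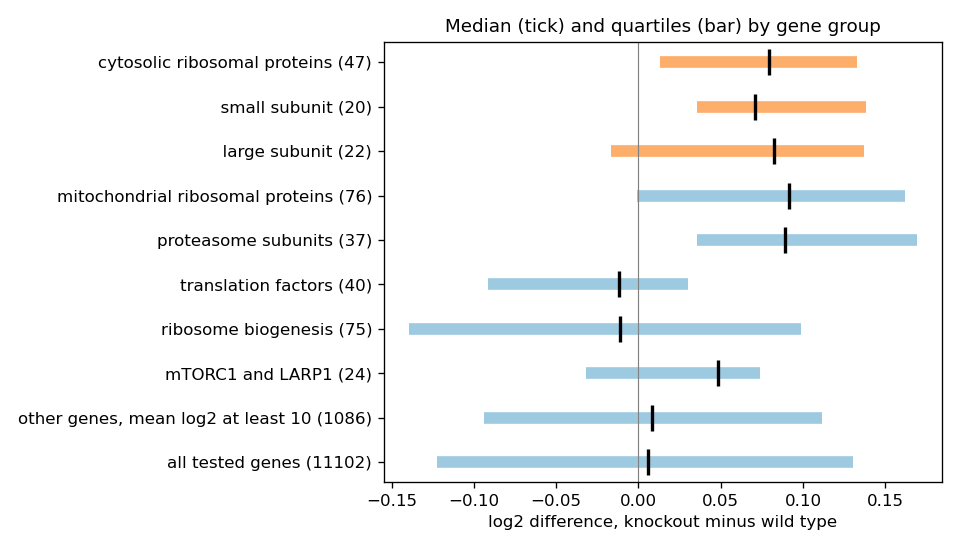
Median (tick) and quartiles (bar) of the log2 difference, knockout minus wild type, for the members and other gene groups, with the number of tested genes in brackets. The medians of cytosolic ribosomal proteins, mitochondrial ribosomal proteins and proteasome subunits lie between 0.08 and 0.09, and those of translation factors and ribosome biogenesis at -0.01.

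Antioxidant response element cores, written TGACNNNGC and searched on both strands, stood in the promoter windows of 10 of the 44 members with a RefSeq entry (22.7%), against 14.8% of all genes. They were Rpl13a, Rpl14, Rpl22l1, Rpl3l, Rplp0, Rps16, Rps25, Rps28, Rps3 and Rps6. The matches of Rps28 and Rplp0 are shown, since these members lie on opposite sides of 0, with the core in capitals. That of Rps28, within chr17:33824524-33824552, is read on the strand opposite to the gene and starts 21 bases into the transcript. That of Rplp0, within chr5:115559257-115559285, is read on the strand of the gene and starts 200 bases before the transcript (GRCm38.p6).
Rps28: tagtcggctcTGACCACGCctcactttcg
Rplp0: actgactcggTGACGCTGCagggcggctc
Of the 8 tested members with a match, 6 were higher, with a median of 0.08, and of the 33 without one, 26 were higher, with a median of 0.08. A match is a run of letters and shows no binding.

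The brighter Nfe2l2 probe set was read at 5.74, 7.40 and 6.90 in the knockout, against 696, 598 and 625 in the wild type, which fits the genotype labels. The other, dim Nfe2l2 probe set was read at 24.4 to 27.9 in the knockout, against 20.2 to 34.4 in the wild type (0.14 ± 0.22). Where either lies relative to the deleted part is not given in the sources used here. Hepatocyte markers were bright on every array. Of 17 tested, 11 were higher, the median was 0.03, and the sums were 172012 to 178064 in the knockout, against 170124 to 174285 in the wild type. In the lists of other cell types 0 markers passed the test. All 12 stellate cell and fibroblast markers were higher, and their summed normalized level was 5205 to 5382 in the knockout, against 4079 to 4761 in the wild type. Of the 9 tested of 20 lymphocyte and granulocyte markers 7 were higher, with sums of 563 to 976 in the knockout, against 602 to 846 in the wild type, and Cd3e and Cd79a were among those not tested. Of 14 Kupffer cell and macrophage markers 10 were higher, with overlapping sums of 9068 to 11190 in the knockout, against 9160 to 10114 in the wild type. Of 3 tested cholangiocyte markers 1 was higher, and of 3 tested red blood cell markers 2 were, with overlapping sums in both lists. Sums of the 12 sinusoidal endothelial markers were 3061 to 3119 in the knockout, against 2871 to 2983 in the wild type. By single marker, 8 of these 12 lay above 0 and 4 lay below. In all these marker sums the brightest genes weigh most, and no other scaling was used for them. The 3′ to 5′ ratio of the beta-actin controls, a sign of RNA integrity, was 1.97 ± 0.03 in the knockout, against 1.86 ± 0.08 in the wild type (SD, n = 3 each). That of the Gapdh controls was 0.767 ± 0.037 in the knockout, against 0.760 ± 0.006 in the wild type. The part of these in the shift of the ribosomal protein genes was not tested.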

How the data were processed

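Liver RNA of 6 pools, 3 per genotype, was measured. The deposited values were probe set intensities on a linear scale, made with GCOS 1.4 per the submitters' processing notes. How the signal was computed and scaled is not given in the sources used here. Per array, the 2% trimmed mean ran from 92.7 to 132. The number of arrays limits the precision. The p-values set the difference between genotypes against the spread between pools, which limma moderates across probe sets.

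Values were taken as log2(intensity + 5.26), the 25th percentile of all values, and quantile normalized, so fold changes of dim probe sets are understated. Without the 64 control probe sets, the 22519 probe sets at or above the median were tested. A gene took its brightest tested probe set with 1 gene name. The test was limma 3.58.1 (R 4.3.3; lmFit, then eBayes with trend), p-values were adjusted by Benjamini-Hochberg over every tested probe set, and the threshold was 0.05. The procedure was tested on simulated data. A difference of 0.25 log2 put into such data passed in 0 of 250 probe sets. One of 0.5 log2 passed in 7.2%, one of 1 in 59.6% and one of 2 in 97.6%. A gene that did not pass was thus not shown to be unchanged.

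Gene names came from the platform annotation and were updated through Entrez identifiers. Members and lists were chosen with earlier results of these data known. Named were the 8 higher and the 8 lower members with the smallest p, a set of members always described, and the 3 members of each other list with the smallest p, of which only some are printed. Other named genes were chosen after their values were seen. Same-numbered pools had correlations of 0.13, 0.05 and 0.25 between their deviations from the genotype means. Those of differently numbered pools ran from -0.19 to 0.10. The labels do not say whether the numbers pair the pools, and the main fit did not treat the genotypes as paired. Alternatives were median centring, other pseudocounts and filters, no trend, array weights, the replicate block, leaving out pools, the mean of probe sets and leaving out _s_at and _x_at probe sets.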

Additional observations from a re-analysis of the deposited data

How the results depend on the processing

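In all settings run, 0 member probe sets passed the threshold, and the median of the ribosomal protein genes was above 0 and above that of all genes. With all pools it was lowest under median centring, at 0.05. With a pool left out it ran from 0.034 (knockout pool 2) to 0.089 (wild-type pool 3). With a pool left out, 34 to 38 of 47 members were higher. It was 34 of 47 under median centring, 32 of 47 with the mean of probe sets, 27 of 42 without _s_at and _x_at probe sets, 37 of 50 unfiltered and 33 of 43 when filtered at the 70th percentile. Members of mean log2 value of at least 10, a limit chosen after seeing the data, had 26 of 36 higher and a median of 0.06. Under median centring the median of all genes was -0.03, against 0.01, and 43.8% of all genes were higher, against 51.4%. Of all probe sets, 32 passed. That count was 20 unfiltered, 19 when filtered at the 70th percentile, 18 with no intensity trend, 41 under median centring, 40 with array weights, and 18 to 29 with a pool left out (19 without knockout pool 1, 19 without knockout pool 2, 18 without wild-type pool 2), and the cause was not tested. With the replicate number as a block, which the labels do not say pairs the pools, the median was 0.079. In that setting 6 members were higher at an unadjusted p under 0.05, and the share of all genes was not counted. The smallest limma adjusted p of a member probe set was then 0.198, against 0.359 without the block. Single genes were followed under alternatives only for the members named by rule and Nfe2l2. Of these 396 values, 382 kept direction and side of the threshold and 14 turned direction. Since 0 members passed in any setting, the side of the threshold says little about them. Rps4l was at -0.031 under median centring and -0.10 with array weights. With a pool left out, Rps4l ran from -0.13 to 0.154, Rpl22l1 from -0.128 to 0.076, Rpl12 from -0.288 to 0.0124, Rpl8 from -0.0835 to 0.0164, Rps7 from -0.0858 to 0.00534, Rps6 from -0.00661 to 0.184 and Rpsa from -0.0617 to 0.0263.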
